A study of Homo sapiens with 4 samples.

Results

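Autophagy delivers cytoplasmic material to the lysosome, and the kinase complex mTORC1 holds it in check when nutrients are plentiful. The expression of 38 genes of this system was compared between control and 3′ WRE-Mut cells. They were chosen by gene symbol alone, as Rag GTPases, folliculin and TSC genes, mTORC1 genes, ATG genes and autophagy receptors, and each is 1 of 57815 genes in the deposited table. The control was unedited, parental HCT116, a long-used line of human colorectal carcinoma cells. The 3′ WRE-Mut cells are a clone of HCT116 that was edited with CRISPR/Cas9 so that TBE1, a TCF binding element in the Wnt-responsive element 3′ of MYC, is missing from each allele. RNA of 2 biological replicates per group was sequenced with single reads, and all cells were grown in the same medium with serum. Since both 3′ WRE-Mut libraries come from 1 clone, the deletion and other differences between the clone and its parent cannot be told apart, and the spread between libraries is not a spread between clones.

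Values are FPKM, fragment counts scaled by exon length and by the number of mapped fragments, so levels can be set side by side between genes. No read counts were used and the depth of each library is unknown. MYC, the gene next to the deletion, was at 111 and 113 FPKM in the control libraries against 48.0 and 34.2 FPKM in the 3′ WRE-Mut libraries. Its log2 fold change was −1.44 ± 0.25 (SE, limma adjusted p = 0.0216 over protein-coding genes and 0.149 over all genes tested), and it did not pass without control replicate 1 (0.101) or without control replicate 2 (0.107). Of 8 markers of colorectal epithelium 6 reached 1 FPKM, while CDX1 was listed at 0 in every library and VIL1 did not exceed 0.148 FPKM. The summed epithelial level was lower in 3′ WRE-Mut cells, at 1919 and 1809 FPKM against 2864 and 2619 FPKM, and most of it came from KRT8, KRT18 and KRT19. CDH1 was higher, at 49.5 and 73.0 FPKM against 42.3 and 24.3 FPKM. EPCAM was lower without overlap, at 145.6 and 178.6 FPKM against 182.5 and 216.7 FPKM. The leukocyte genes PTPRC and CD3E stayed at or below 0.0610 FPKM, and CD68, a marker of macrophages, was at 68.5 and 70.2 FPKM against 39.6 and 41.6 FPKM in control cells. The fibroblast sum, nearly all of it COL1A1, was 21.1 and 28.7 FPKM against 14.4 and 17.3 FPKM, and 2 endothelial markers summed to at most 0.266 FPKM. The part of these marker differences in the results below was not tested.

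When amino acids are plentiful, a pair of Rag GTPases, RagA or RagB bound to RagC or RagD, carries mTORC1 to the lysosomal surface, where the small GTPase RHEB switches the kinase on. Active mTORC1 phosphorylates and blocks the ULK1 complex. When it is off, ULK1 and a lipid kinase complex around PIK3C3 start a membrane sheet, the ATG5 and ATG12 conjugation systems attach LC3 and GABARAP proteins to it, and receptors such as SQSTM1 and OPTN tie cargo to those proteins. In intestinal tumor cells autophagy is known as a source of nutrients under stress, and MYC as a driver of the growth that mTORC1 supports.

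Of the 38 genes, 6 were higher in 3′ WRE-Mut cells and 0 were lower. The 6 were RRAGC and RRAGD, which encode RagC and RagD, FNIP1, a partner of folliculin, ATG5, a core conjugation factor, EPG5, a tether that joins autophagosomes to late endosomes and lysosomes, and OPTN, an autophagy receptor. Their group means differed by 2.29-fold for RRAGD to 3.24-fold for EPG5. The difference in log2(FPKM + 1) was tested with limma, with adjustment over all 11631 protein-coding genes that had a mean of at least 1 FPKM. All members passed this minimum except FNIP2, so that 6 of 37 (16.2%) were called higher, where 4.02% of all protein-coding genes were, and 0 of 37 were called lower, where 4.31% were (8.33% in either direction). At an unadjusted limma p under 0.05 these numbers were 11 higher (29.7%, against 14.6% of protein-coding genes) and 3 lower (8.11%, against 15.6%). When the same test was run over all 14815 genes of any class, of which limma called 0.0877% higher and 0.101% lower (0.189% in either direction), 0 members passed. Their lowest limma adjusted p was then 0.155, for OPTN, and an unadjusted p under 0.05 was reached by 11 members that were higher and 2 that were lower, against 11.0% and 11.2% of all tested genes. In the rest of the text, rose and fell refer to the test over protein-coding genes.

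Most tested members, with the genes called higher among them, lay higher in 3′ WRE-Mut cells. Of the 37 tested members, 21 (56.8%) had each 3′ WRE-Mut value above each control value, against 30.9% of protein-coding genes and 28.7% of all tested genes. For 4 (10.8%) each value lay below, against 32.0% and 30.6%. The other 12 overlapped between the groups. The median log2 fold change of the members was 0.30, against −0.02 over all protein-coding genes tested, and 30 of 37 (81.1%) were above 0, against 48.5% of protein-coding genes. Because RNA came from whole cultures, more or fewer cells with a transcript and more or less per cell cannot be told apart. With 2 libraries against 2, an exact two-sided permutation test of a single gene cannot go below p = 0.333, and the calls rest on the spread that limma shares across genes.

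**Figure D1:**
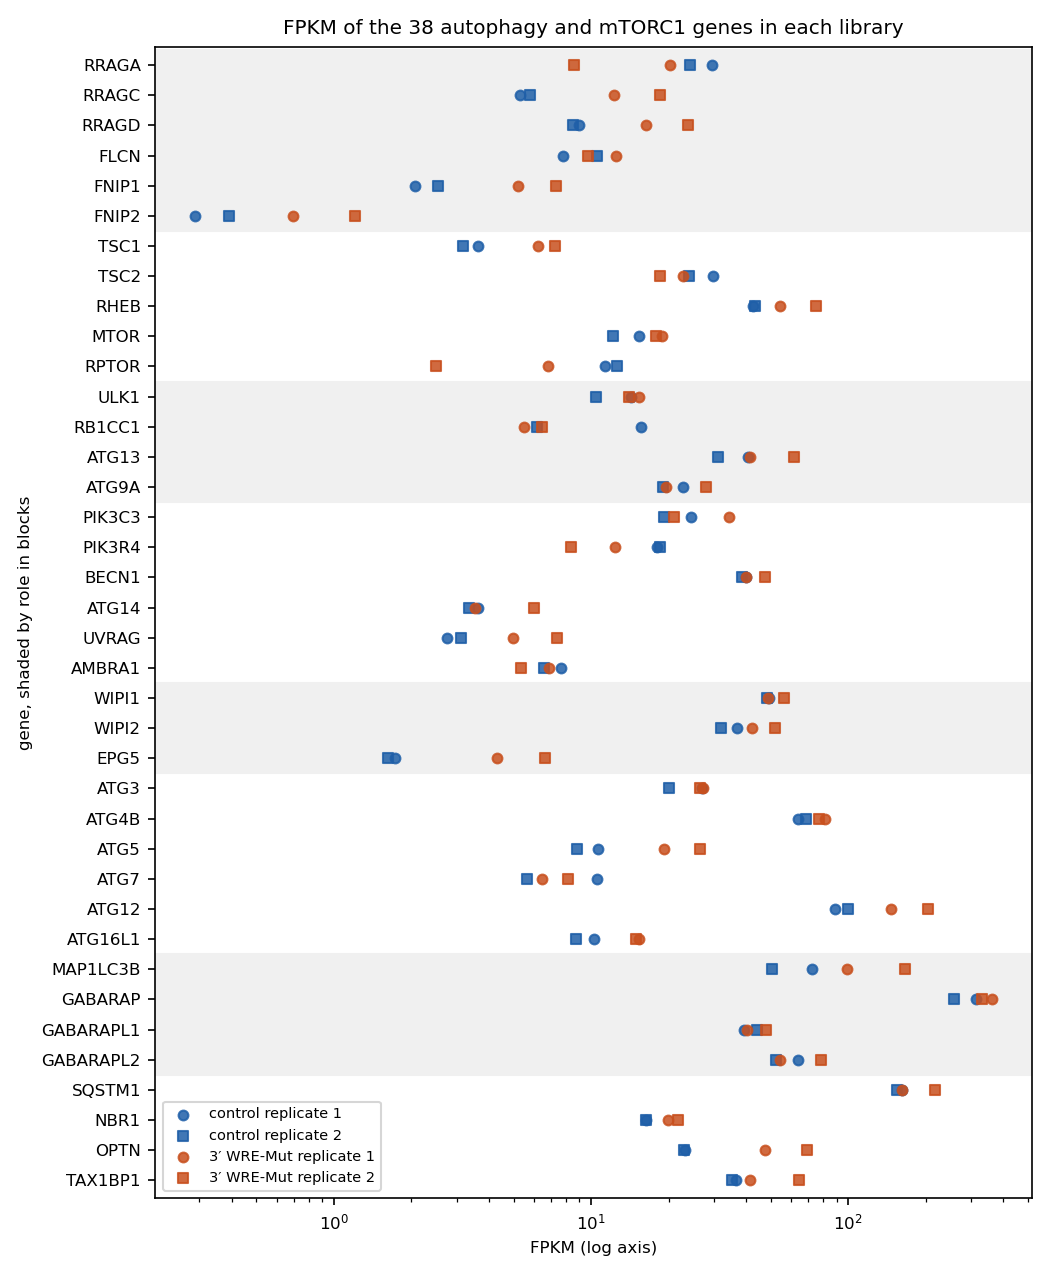
FPKM on a log axis of the 38 genes in each of the 4 libraries, in shaded blocks by role, with control in blue and 3′ WRE-Mut in orange, and circles for replicate 1 and squares for replicate 2. The orange points of RRAGC, RRAGD, FNIP1, EPG5, ATG5 and OPTN all lie to the right of the blue ones, those of RRAGA, RPTOR and PIK3R4 lie to the left, and GABARAP is highest at 257 to 363 FPKM.

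**Figure D2:**
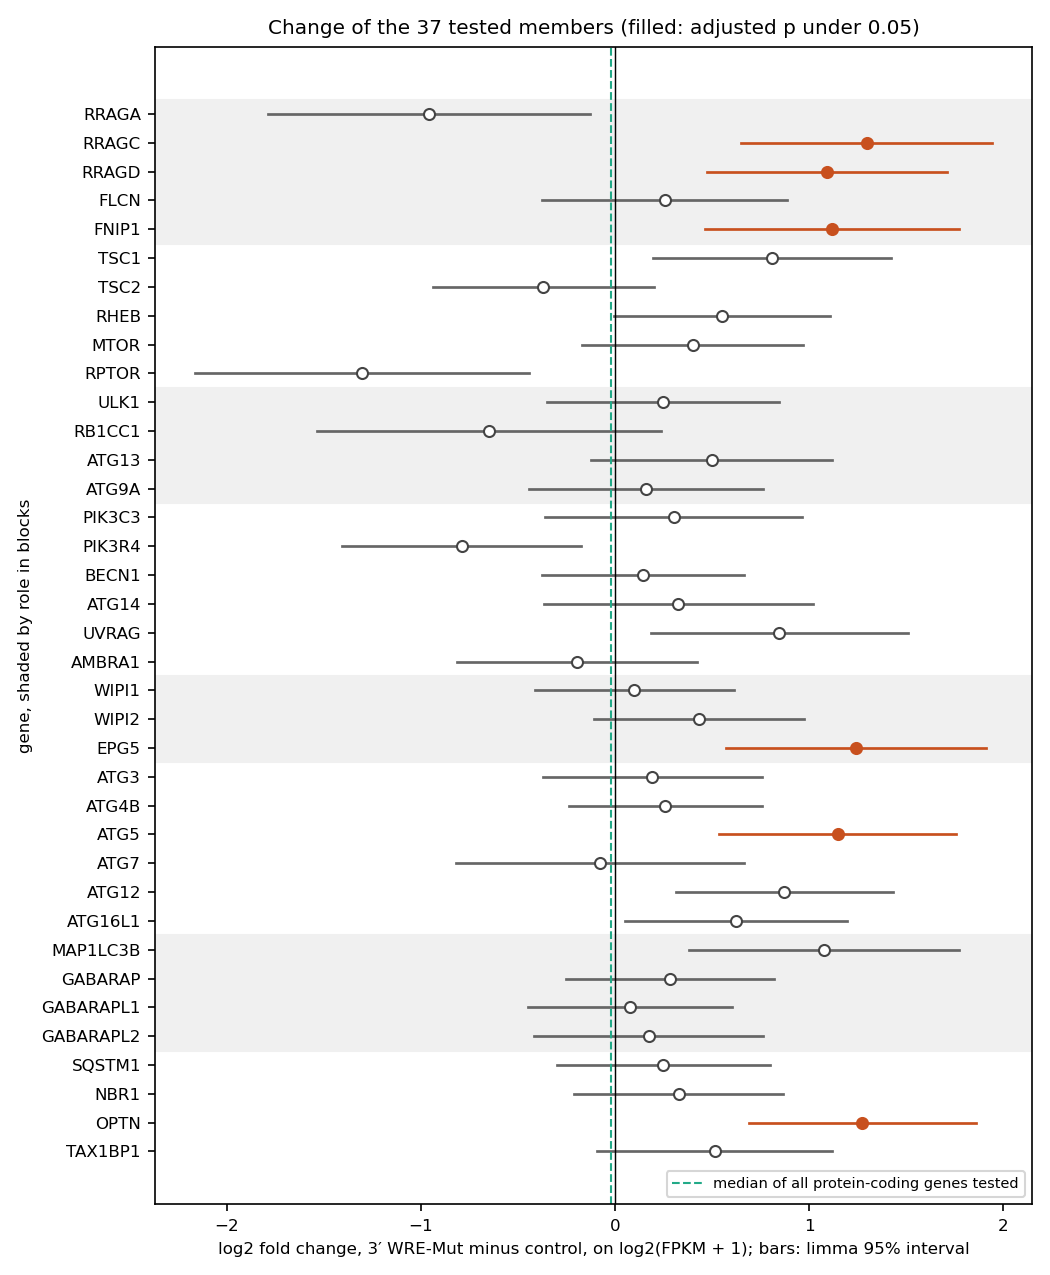
Log2 fold change of the 37 tested members on the log2(FPKM + 1) scale (3′ WRE-Mut minus control), with limma's 95% interval as a bar. Filled points are the 6 genes called higher, from 1.09 for RRAGD to 1.296 for RRAGC, and the dashed line is the median of all protein-coding genes, −0.02.

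The 6 calls depended on which libraries were used. Without control replicate 1 none of them passed (limma adjusted p from 0.158 for OPTN to 0.321 for FNIP1), and without control replicate 2 none passed either (0.158 for OPTN to 0.244 for ATG5). Without 3′ WRE-Mut replicate 1 limma called 13 members higher and 3 lower, and all 6 were among the 13. Without 3′ WRE-Mut replicate 2, RRAGC, EPG5, ATG5 and OPTN kept their calls, whereas RRAGD (limma adjusted p = 0.0550) and FNIP1 (0.0558) lost theirs. Leaving out a control library leaves the spread to the 3′ WRE-Mut libraries, which differed more from each other. The SD over members of the difference between replicates was 0.47 on the log2 scale in 3′ WRE-Mut cells and 0.30 in control cells.

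The 2 libraries of the clone lay at unequal distances from control. On the log2 scale, members lay at a median of 0.29 above the control mean in replicate 1 of the clone and of 0.41 in its replicate 2. Of 37 members, 27 (73%) were farther from the control mean in replicate 2, and 70.9% of all protein-coding genes were as well. The 6 genes called higher lay higher by 0.83 or more in replicate 1 alone, from 0.83 for RRAGD to 1.02 for RRAGC, and by 1.33 to 1.57 in replicate 2. For RRAGA, RPTOR and MAP1LC3B the gap between the replicates was wider than for any of those 6. RRAGA was at −0.39 and −1.53, RPTOR at −0.72 and −1.88, and MAP1LC3B at 0.70 and 1.45.

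**Figure D3:**
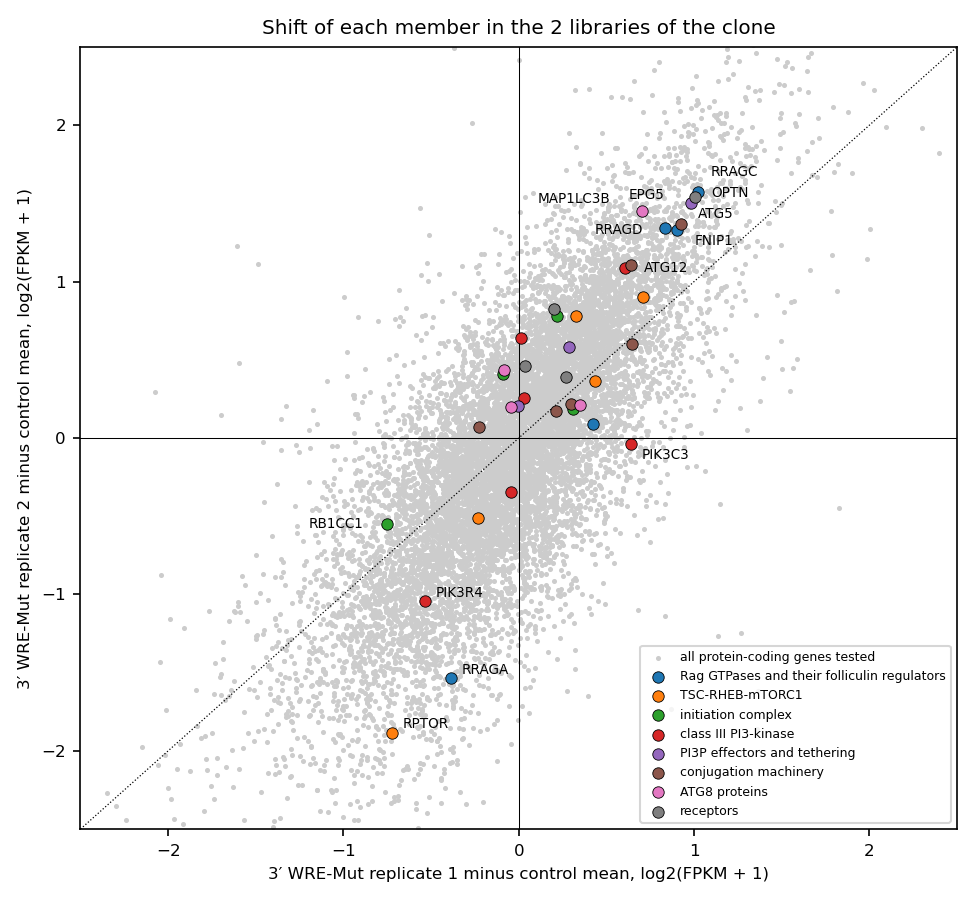
Difference in log2(FPKM + 1) from the mean of the control libraries, in 3′ WRE-Mut replicate 1 (x axis) and replicate 2 (y axis). Colored points are the 37 tested members by role and grey points all protein-coding genes tested, of which 99 lie beyond 2.5 on an axis and are not drawn. On the dotted line the 2 libraries are equal, and RRAGC (1.02 and 1.57), RRAGA (−0.39 and −1.53) and RPTOR (−0.72 and −1.88) lie farther out in replicate 2.

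Of the Rag GTPase genes, RRAGC and RRAGD rose and RRAGA did not pass the test. RRAGC, which encodes RagC, was at 5.31 and 5.81 FPKM in control cells and 12.3 and 18.5 FPKM in 3′ WRE-Mut cells. Its paralog RRAGD was at 8.997 and 8.49 FPKM in control cells and 16.4 and 23.7 FPKM in 3′ WRE-Mut cells. For each gene both 3′ WRE-Mut libraries lay above both control libraries. The log2 fold change was 1.296 ± 0.29 (SE) for RRAGC and 1.09 ± 0.27 for RRAGD, and the limma adjusted p was 0.0367 and 0.0465. RRAGA encodes RagA, the partner on the other side of the pair, and was at 29.5 and 24.2 FPKM in control cells against 20.2 and 8.57 FPKM in 3′ WRE-Mut cells. Its groups did not overlap and its mean was 1.87-fold lower, but this did not pass (log2 fold change −0.96, 95% interval −1.79 to −0.13, limma adjusted p = 0.119). In control cells RRAGA was thus at a higher level than RRAGC and RRAGD, and in 3′ WRE-Mut replicate 2 it was below both. RRAGB, which encodes the alternative partner RagB, overlapped between the groups, at 2.97 and 5.35 FPKM in control and 1.65 and 4.58 FPKM in 3′ WRE-Mut cells.

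Folliculin and its partners switch RagC and RagD to the form that carries mTORC1. FLCN itself was at 7.80 and 10.5 FPKM in control and 12.5 and 9.73 FPKM in 3′ WRE-Mut cells, which overlapped. Its log2 fold change was 0.26 with a 95% interval of −0.37 to 0.89. FNIP1 went from 2.07 and 2.55 FPKM to 5.18 and 7.29 FPKM, a 2.70-fold difference of means without overlap (log2 fold change 1.12 ± 0.29 SE, limma adjusted p = 0.0489). FNIP2, a second partner, was at 0.289 and 0.389 FPKM in control and 0.694 and 1.21 FPKM in 3′ WRE-Mut cells. It did not reach the minimum of 1 FPKM on average and was not tested.

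RRAGC lies on chromosome 1 of hg19 from 39303870 to 39325444, RRAGD on chromosome 6 from 90074335 to 90121992 and FNIP1 on chromosome 5 from 130977407 to 131132710, all on the minus strand by Gencode v44lift37. Of the annotated exonic bases of RRAGC, 23.1% are shared with another transcript model on the same strand, and of FNIP1 3.56%, so reads there cannot be assigned with certainty. RRAGD shares none. The strand of the reads is not given in the sources used here.

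Promoter sequences are shown for the genes that rose and for which a RefSeq window (GRCh38.p14) starts at the 5′ end of the annotated gene, since MYC with its partner MAX and the TFEB family of lysosomal regulators are both known to bind the hexamer CACGTG. Each is the 250 bases before the start site, 5′ to 3′ on the gene's strand, with every CACGTG in capitals. RRAGC (chr1:38859773-38860022, minus strand) holds 1 copy, FNIP1 (chr5:131797018-131797267, minus strand) 2 copies and OPTN (chr10:13099832-13100081, plus strand) 0.
RRAGC: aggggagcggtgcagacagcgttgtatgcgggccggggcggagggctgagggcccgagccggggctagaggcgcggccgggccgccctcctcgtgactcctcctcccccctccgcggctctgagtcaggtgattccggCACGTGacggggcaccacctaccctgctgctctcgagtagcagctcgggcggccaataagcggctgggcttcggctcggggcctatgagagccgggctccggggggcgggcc
FNIP1: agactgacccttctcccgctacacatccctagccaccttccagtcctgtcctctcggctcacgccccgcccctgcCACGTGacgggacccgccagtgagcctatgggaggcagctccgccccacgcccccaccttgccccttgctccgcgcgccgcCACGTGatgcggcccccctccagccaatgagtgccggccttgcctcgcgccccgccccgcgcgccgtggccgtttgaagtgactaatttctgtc
OPTN: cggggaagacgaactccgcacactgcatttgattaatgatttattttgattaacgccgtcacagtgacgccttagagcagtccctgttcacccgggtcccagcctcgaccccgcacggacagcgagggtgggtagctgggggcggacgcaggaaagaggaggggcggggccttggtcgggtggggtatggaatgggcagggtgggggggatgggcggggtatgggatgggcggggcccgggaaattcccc
The copy in RRAGC starts 112 bases before the start site, and those in FNIP1 start 175 and 94 bases before it.

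The hexamer, which reads the same on both strands, was counted in the whole RefSeq windows of 250 bases before and 50 after the start. Windows matched 33 of the 38 members by symbol, and 5 of the 33 (15.2%) held CACGTG, namely RRAGC, FNIP1, ATG3, ATG14 and TSC2. The share was 10.3% over 8812 windows of protein-coding genes tested and 7.43% over all 27305 windows. Of the 5 members with the hexamer, RRAGC and FNIP1 rose, and ATG3, ATG14 and TSC2 did not pass the test. TCACGTGA, an 8-base form preferred by the TFEB family that contains the hexamer, was in the windows of ATG3 and TSC2. It was in 2.08% of windows of protein-coding genes tested and in 1.04% of all windows. For ATG5 and AMBRA1 the window starts more than 1000 bases inside the gene, and RRAGA, RRAGD, RB1CC1, UVRAG and EPG5 had no window. A match is a description of the sequence and was not tested against expression. Of the TFEB family, TFE3 rose from 13.6 and 10.8 FPKM to 29.2 and 44.5 FPKM (limma adjusted p = 0.0256 over protein-coding genes and 0.155 over all genes tested). TFEB, at 3.33 and 6.32 against 6.82 and 6.01 FPKM, overlapped between the groups. MITF, at 1.34 and 1.56 against 1.76 and 3.35 FPKM, did not pass (limma adjusted p = 0.305).

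Of the TSC, RHEB and mTORC1 genes none passed the test. Without overlap 3 of the 5 were higher and 2 lower, where 30.9% and 32.0% of protein-coding genes were. TSC1 and TSC2 form the complex that turns RHEB off. TSC1 was at 3.65 and 3.19 FPKM in control and 6.22 and 7.26 FPKM in 3′ WRE-Mut cells, a log2 fold change of 0.81 (95% interval 0.19 to 1.42, limma adjusted p = 0.0891). TSC2 lay on the other side, at 29.9 and 24.1 FPKM against 22.8 and 18.6 FPKM, with a log2 fold change of −0.37 (95% interval −0.94 to 0.20). RHEB was at 42.8 and 43.5 FPKM in control and 54.3 and 74.8 FPKM in 3′ WRE-Mut cells, and the kinase MTOR at 15.4 and 12.2 against 18.9 and 17.9 FPKM. Both were higher in each 3′ WRE-Mut library, by log2 fold changes of 0.55 and 0.40.

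RPTOR, the scaffold that recruits substrates to mTORC1, had the lowest log2 fold change of all members. It was at 11.3 and 12.6 FPKM in control cells against 6.83 and 2.499 FPKM in 3′ WRE-Mut cells. Its mean was 2.56-fold lower and its groups did not overlap, with 3′ WRE-Mut replicate 2 far below replicate 1. The log2 fold change of −1.302 ± 0.38 (SE) did not pass over protein-coding genes (limma adjusted p = 0.0639). It crossed the threshold when genes below a mean of 5 FPKM were left out (0.0499) and without 3′ WRE-Mut replicate 1 (2.01e-05).

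In the initiation complex none of 4 genes passed. The kinase ULK1 was at 14.3 and 10.5 FPKM in control and 15.4 and 14.1 FPKM in 3′ WRE-Mut cells, and ATG9A, a membrane protein of the vesicles that seed the autophagosome, at 22.8 and 19.004 against 19.5 and 27.9 FPKM. Each overlapped between the groups. ATG13, which links ULK1 to its scaffold, was at 40.8 and 31.1 FPKM in control cells against 41.6 and 61.8 FPKM in 3′ WRE-Mut cells, with replicate 1 just above the higher control value and replicate 2 well above it (log2 fold change 0.50, limma adjusted p = 0.251). RB1CC1, that scaffold, was at 15.7 FPKM in control replicate 1 but at 6.14 FPKM in control replicate 2, against 5.49 and 6.45 FPKM in 3′ WRE-Mut cells. Its log2 fold change of −0.65 (95% interval −1.54 to 0.24) was −0.037 without control replicate 1.

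The class III PI3-kinase complex makes the lipid PI3P on the growing membrane, and none of its 6 genes passed the test. PIK3R4, its regulatory subunit, was at 18.0 and 18.6 FPKM in control cells against 12.3 and 8.36 FPKM in 3′ WRE-Mut cells. Both 3′ WRE-Mut libraries were lower, with a log2 fold change of −0.79 (95% interval −1.40 to −0.17, limma adjusted p = 0.0952). UVRAG, a subunit used in endosomal traffic, was at 2.74 and 3.12 against 4.97 and 7.35 FPKM, and lay higher in both 3′ WRE-Mut libraries (log2 fold change 0.85, 95% interval 0.19 to 1.51, limma adjusted p = 0.0950). ATG14, which takes the place of UVRAG in the complex that starts autophagosomes, overlapped at 3.64 and 3.34 against 3.52 and 5.99 FPKM. The catalytic subunit PIK3C3 was at 24.4 and 19.2 FPKM in control and 34.4 and 21.1 FPKM in 3′ WRE-Mut cells, so that only replicate 1 stood above control. BECN1, the common subunit, was at 40.0 and 38.6 against 40.1 and 47.3 FPKM, and AMBRA1, a regulator that binds BECN1, at 7.62 and 6.58 against 6.85 and 5.35 FPKM. Values of BECN1 lay just above control in replicate 1 and those of AMBRA1 overlapped.

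Among the proteins that act on PI3P or join the finished autophagosome to the lysosome, EPG5 had the largest ratio of group means of all tested members. It was at 1.73 and 1.63 FPKM in control cells and 4.29 and 6.59 FPKM in 3′ WRE-Mut cells, without overlap. The log2 fold change was 1.24 ± 0.29 (SE), with a limma adjusted p of 0.0424. By Gencode v44lift37 EPG5 lies on chromosome 18 of hg19 from 43380546 to 43547295 on the minus strand, and no other annotated gene shares its exons. The locus deposited with its values is shorter, from 43427574 to 43547240. WIPI2, which reads PI3P and recruits ATG16L1, was at 37.1 and 31.9 FPKM in control and 42.2 and 51.9 FPKM in 3′ WRE-Mut cells, a log2 fold change of 0.43 (95% interval −0.11 to 0.98). Its relative WIPI1 was at 49.3 and 48.2 against 48.6 and 56.3 FPKM and overlapped.

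The conjugation systems attach ATG8 proteins to membrane lipid, and ATG5, ATG12 and ATG16L1 form the complex that completes the reaction. ATG5 rose from 10.6 and 8.78 FPKM in control cells to 19.2 and 26.5 FPKM in 3′ WRE-Mut cells (2.36-fold, log2 fold change 1.15 ± 0.27 SE, limma adjusted p = 0.0415). By Gencode v44lift37 it lies on chromosome 6 of hg19 from 106493298 to 106773666 on the minus strand, and its exons are not shared. The locus deposited with its values is shorter, from 106632351 to 106773666, and is listed for other genes as well. ATG12 was at 89.1 and 99.4 FPKM in control and 147 and 203 FPKM in 3′ WRE-Mut cells, and missed the threshold (log2 fold change 0.87, 95% interval 0.31 to 1.43, limma adjusted p = 0.0590). ATG16L1 was at 10.3 and 8.74 against 15.4 and 14.9 FPKM (log2 fold change 0.62, 95% interval 0.05 to 1.19, limma adjusted p = 0.135). Of these 3 genes 1 passed, and all 3 were higher without overlap, as were 30.9% of protein-coding genes.

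The enzymes of the same pathway showed smaller differences. ATG7, the E1-like enzyme that activates ATG12 and the ATG8 proteins, was at 10.5 and 5.62 FPKM in control and 6.45 and 8.16 FPKM in 3′ WRE-Mut cells, inside the control range. ATG3, the E2-like enzyme for the ATG8 proteins, was at 27.0 and 20.1 against 27.1 and 26.4 FPKM. ATG4B, the protease that prepares ATG8 proteins and later frees them, was at 63.7 and 68.3 against 81.5 and 77.0 FPKM, higher in both 3′ WRE-Mut libraries by a log2 fold change of 0.26 (95% interval −0.24 to 0.76).

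None of the 4 genes for ATG8 proteins passed the test. MAP1LC3B, which encodes LC3B, was at 72.2 and 50.3 FPKM in control cells against 98.7 and 166.7 FPKM in 3′ WRE-Mut cells. Its mean was 2.17-fold higher without overlap, and the log2 fold change of 1.08 ± 0.31 (SE) missed the threshold (limma adjusted p = 0.0597). It passed after quantile normalization (0.0462), with a minimum mean of 5 FPKM (0.0463) and without 3′ WRE-Mut replicate 1 (0.000153). GABARAP was the most abundant member in every library, at 315 and 257 FPKM in control and 363 and 330 FPKM in 3′ WRE-Mut cells, a log2 fold change of 0.28 (95% interval −0.25 to 0.82). Of its annotated exonic bases 48.2% are shared with other gene models. GABARAPL1, at 39.3 and 44.3 against 40.5 and 48.0 FPKM, and GABARAPL2, at 64.0 and 52.2 against 54.5 and 78.3 FPKM, overlapped between the groups. Reads of MAP1LC3B and GABARAPL1 can be shared with the close copies MAP1LC3B2 and GABARAPL3, so their values are uncertain to that extent.

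Among the receptors, OPTN had the lowest limma adjusted p of all members (0.0301). It was at 23.2 and 23.0 FPKM in control cells against 47.5 and 69.4 FPKM in 3′ WRE-Mut cells, a 2.52-fold difference of means with a log2 fold change of 1.27 ± 0.26 (SE). By Gencode v44lift37 OPTN spans bases 13141449 to 13180308 of chromosome 10 of hg19, on the plus strand. It shares 4.89% of its exonic bases with other models. The locus deposited with the values of OPTN is longer, from 12938627 to 13180291, and is listed for other genes as well. SQSTM1, the receptor that is itself degraded by autophagy, was at 161 and 155 FPKM in control and 162 and 218 FPKM in the clone. The 3′ WRE-Mut values were above the control values, replicate 1 by little, and the log2 fold change was 0.25 (95% interval −0.30 to 0.80). TAX1BP1 was at 36.5 and 35.4 against 41.5 and 64.5 FPKM, and NBR1 at 16.3 and 16.3 against 19.9 and 21.7 FPKM. OPTN passed, and the other receptors did not (limma adjusted p from 0.227 to 0.512). All 4 were higher without overlap, as were 30.9% of protein-coding genes.

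Other genes of the pathway were taken from a list drawn up by function. Of the 81 that were found, 75 were tested as protein-coding, and 2 of these (2.67%) rose and 0 fell, against 4.02% and 4.31% of protein-coding genes. At an unadjusted limma p under 0.05, 18 (24%) were higher and 6 (8%) lower, against 14.6% and 15.6%. Their median log2 fold change was 0.06, and 27 (36%) were higher and 15 (20%) lower without overlap, against 30.9% and 32.0% of protein-coding genes. C12orf44, also named ATG101, which stabilizes ATG13 in the ULK1 complex, rose from 46.2 and 50.1 FPKM to 99.3 and 126.9 FPKM (limma adjusted p = 0.0280). KIAA0226, also named Rubicon, an inhibitor of the UVRAG form of the PI3-kinase complex, rose from 6.85 and 7.38 FPKM to 13.4 and 24.3 FPKM (limma adjusted p = 0.0482). Over all genes tested their limma adjusted p was 0.155 and 0.171. Neither was called without control replicate 1 or without control replicate 2, 1 gene of the list was called higher without 3′ WRE-Mut replicate 2, and 18 were without 3′ WRE-Mut replicate 1.

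The 6 other genes of the list with the largest moderated t did not pass. LAMTOR3, a subunit of the Ragulator complex that anchors the Rag GTPases, was at 13.7 and 10.7 FPKM in control and 19.7 and 35.5 FPKM in 3′ WRE-Mut cells (log2 fold change 1.07, limma adjusted p = 0.0664). SEC13, which the nuclear pore and the GATOR complex share, was at 116.6 and 109 against 180.3 and 208.5 FPKM (log2 fold change 0.78, limma adjusted p = 0.0626). EIF4EBP2, a translation repressor that mTORC1 phosphorylates, was at 10.9 and 8.65 against 5.87 and 2.31 FPKM (log2 fold change −1.16, limma adjusted p = 0.0789). TEX264, a receptor for autophagy of the endoplasmic reticulum, was at 19.2 and 20.1 against 10.4 and 3.09 FPKM (log2 fold change −1.60, limma adjusted p = 0.0534). EI24, a membrane protein needed for autophagosome formation, had a log2 fold change of 0.94 (limma adjusted p = 0.0536), and VPS18, a subunit of the tethering complex at the lysosome, of 0.83 (0.0726).

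**Figure D4:**
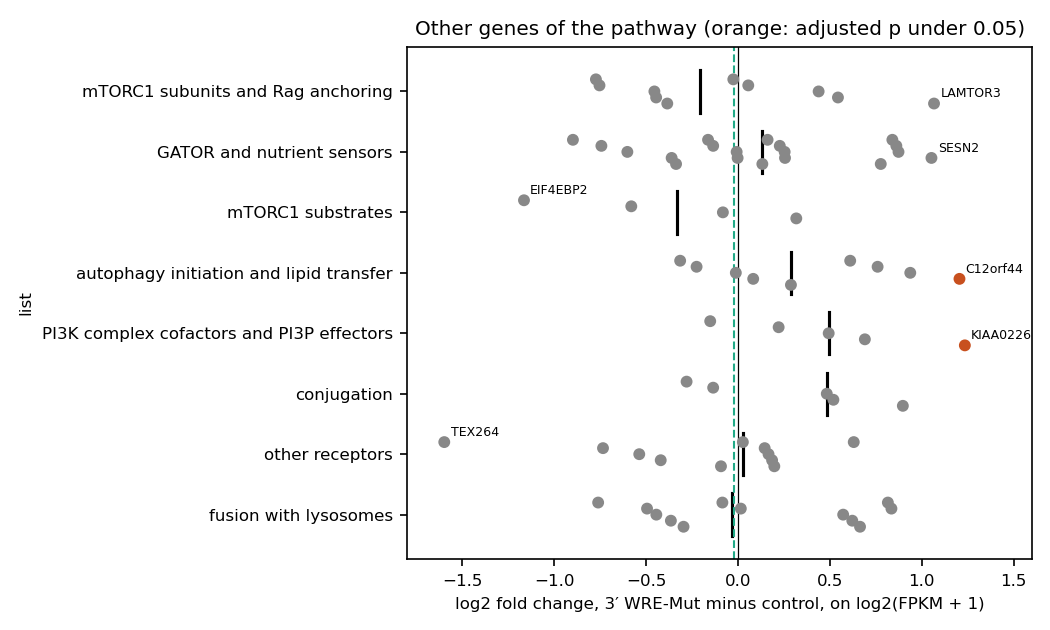
Log2 fold change on log2(FPKM + 1) (3′ WRE-Mut minus control) of the 75 other pathway genes tested, 1 point per gene, by list, with a vertical bar at each list's median and a dashed line at the median of all protein-coding genes, −0.02. The 2 genes called higher, C12orf44 (1.21) and KIAA0226 (1.23), are orange, and the list medians run from −0.33 for mTORC1 substrates to 0.49 for PI3-kinase cofactors.

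The deposited bounds of each FPKM value, which Cufflinks gives for the error of estimation within a library, were wide for these genes. Their half-width was a median of 80.5% of the value. For 36 of 38 members the bounds of all 4 libraries overlapped, and this included 5 of the 6 genes that rose. For RRAGC they did not, since its bounds were 2.34 to 8.28 and 2.56 to 9.06 FPKM in control libraries and 5.62 to 18.999 and 8.80 to 28.1 FPKM in 3′ WRE-Mut libraries, where the lower bound of replicate 2 lay above the upper bound of control replicate 1 and below that of control replicate 2. RRAGA was the other exception, with bounds of 14.8 to 44.1 FPKM in control replicate 1 and 3.79 to 13.3 FPKM in 3′ WRE-Mut replicate 2. For 10 members, SQSTM1 and ATG12 among them, the lower bound was 0 in every library. EPG5, one of the genes that rose, had bounds of 0 to 8.94 and 0 to 15.5 FPKM in the 3′ WRE-Mut libraries. These bounds entered no test.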

How the data were processed

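RNA-Seq of 2 control and 2 3′ WRE-Mut libraries was analyzed. Per the labels and the paper's methods, the authors removed low-quality reads (FASTX-Toolkit), used TopHat2 2.0.9 for alignment to hg19, and computed FPKM values and their bounds per library with Cufflinks, version 2.2.1 in the submitters' processing notes, and Gencode annotation. The authors' Cuffdiff table, which holds group means, fold changes and p-values, was not used.

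Log2(FPKM + 1) was fitted by group with limma 3.58.1 in R 4.3.3, with a variance trend, two-sided tests and Benjamini-Hochberg adjustment at a threshold of 0.05. A gene entered the fit if its average in all 4 libraries reached 1 FPKM. One fit took all classes of genes, and another took protein-coding genes by Gencode v44lift37, in which 55535 deposited genes have an entry. The members and lists, the fits and the rule for naming genes were chosen with earlier results of these data known. All members were named, along with other pathway genes that passed or had the 6 largest moderated t. TFE3 and TFEB were also named, and MITF, RRAGB, NCOA4 and the copies of ATG8 genes were added after their values were seen. The labels do not say whether the biological replicates were separate cultures, so p-values measure the spread between these samples. Columns left without a sample numbered 0. Alternatives tried were pseudocounts of 0.1 and 0.5, a minimum of 5 FPKM or none, median-ratio or quantile scaling, other variance priors, replicate number as a block and leaving out each library. A limit to transcripts of at least 200 bases was added after the data were seen. The fits were tested on simulated data. 1 marker gene is not reported here. Promoter windows came from RefSeq (GRCh38.p14). Figures were drawn with matplotlib 3.10.9.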

Additional observations from a re-analysis of the deposited data

How the results depend on the processing

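Of the 6 members called higher, RRAGD lost its call without a variance trend (limma adjusted p = 0.0509). FNIP1 lost its call with a pseudocount of 0.5 (limma adjusted p = 0.0527). All 6 members called higher kept their calls under median-ratio scaling, quantile normalization and a robust variance prior. Their number was 2 with a pseudocount of 0.1 and 0 without a filter, where more low genes entered the fit, and ranged from 0 to 13 when 1 library was left out. With a minimum mean of 5 FPKM, which leaves out FNIP1 and EPG5, 1 member was lower, and leaving out 1 library gave 0 to 3. Over genes of all classes 0 members passed, and 1 (OPTN) did when the fit was limited to transcripts of at least 200 bases. The members' median log2 fold change ranged from 0.28 to 0.43 when 1 library was left out. Other pathway genes called higher numbered 1 with pseudocounts of 0.1 and 0.5 and without a variance trend, 0 without a filter, and 4 with a minimum of 5 FPKM and after quantile normalization, and 0 to 18 when 1 library was left out. Those called lower numbered 1 with a minimum of 5 FPKM, median-ratio scaling or a robust prior, 2 after quantile normalization, and 0 to 11 when 1 library was left out. The fold change of MYC, −1.44, did not pass without a filter (limma adjusted p = 0.190) and ranged from −1.68 to −1.20 when 1 library was left out.

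Quantile normalization turned WIPI1 to −0.011 and GABARAPL1 to −0.026. When 1 library was left out, log2 fold changes ranged from −0.088 to 0.41 for ATG9A, −0.040 to 0.64 for PIK3C3, −0.0038 to 0.20 for WIPI1, −0.0095 to 0.39 for ATG3, −0.48 to 0.32 for ATG7, −0.042 to 0.20 for GABARAPL1 and −0.084 to 0.43 for GABARAPL2. The labels give replicate numbers but do not say whether same-numbered libraries are paired. Deviations of same-numbered libraries correlated at 0.11 across protein-coding genes. With replicate number as a block limma called 10 members higher, MAP1LC3B among them, and 3 lower, namely RRAGA, RPTOR and PIK3R4. It also called 12 other pathway genes higher and 5 lower. The causes of these changes were not tested. A library left out leaves 1 in its group, which is assumed to vary like the other group. The depth of the libraries is unknown, which limits what can be said of genes near 1 FPKM such as FNIP2.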

Other observations

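Close copies of the ATG8 genes, which are in the list of other pathway genes but were not tested over protein-coding genes, were lower than MAP1LC3B and GABARAP. MAP1LC3A did not exceed 0.299 FPKM in any library and MAP1LC3C did not exceed 0.333 FPKM. GABARAPL3 was listed at 0 in both control libraries, with 0.0574 and 0.0395 FPKM in the clone. MAP1LC3B2, a copy of MAP1LC3B, was at 3.95 and 2.19 FPKM in control cells against 5.56 and 10.8 FPKM in the clone. The order of libraries was the same as for MAP1LC3B. Over genes of all classes MAP1LC3B2 did not pass (limma adjusted p = 0.213). NCOA4, the receptor for autophagy of ferritin, which was not matched to a protein-coding entry and so was tested only over genes of all classes, was at 30.7 and 25.2 FPKM in control and 41.7 and 58.5 FPKM in 3′ WRE-Mut cells. It did not pass (limma adjusted p = 0.189).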
